A study of Homo sapiens with 12 samples.

Results

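The genes described here are 58 genes of the extracellular matrix, of the mesenchymal state and of the contractile apparatus of myofibroblasts, read in MDA-MB-468 and BT-549 cells. They were taken as a list of 60 names, of which CYR61 and CTGF are the older symbols of CCN1 and CCN2, and a gene entered the comparisons if it had a probe detected at p under 0.01 on at least 3 of the 12 arrays. With this rule 51 of the 58 genes were kept, among 11459 genes kept on the array in all. The 7 that were not kept are the fibronectin gene FN1, the cross-linking enzymes LOXL1 and LOXL2, the protease MMP2, the calponin CNN1, the growth factor receptor PDGFRB and the ligand TGFB1. The 3 probes for FN1 were detected on none of the 12 arrays, and the MMP2 probe was detected on 1.

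Both lines are established from basal-like breast cancers. Each was transfected with an siRNA against PRKCD (siPRKCD), which encodes protein kinase C delta, or with a control siRNA (siControl), and the general transfection protocol of the study gives 40 nM siRNA for 72 h. By the culture methods of the study the medium of BT-549 cells held added insulin and that of MDA-MB-468 cells did not. Differences between the lines therefore cannot be told apart from differences in medium. Total RNA was hybridized to Illumina Human HT-12 v4 BeadChips, with 3 arrays for each of BT-549 siPRKCD, BT-549 siControl, MDA-MB-468 siPRKCD and MDA-MB-468 siControl. The study used the PKCδ siRNA as an inducer of apoptosis and read expression to find regulators of cell death. The part of dying cells in the changes described here was not tested. Values are quantile-normalized log2 signals, in which a difference of 1 is a doubling. The replicates are numbered 1 to 3, and a legend of the study calls them experiments without saying more of how the cultures were kept apart. The spread that the p-values rest on is that between these arrays.

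The extracellular matrix is built from fibrillar collagens, which form cables, from the sheet-forming collagen IV of basement membranes, and from glycoproteins and proteoglycans that bind and organise them. Lysyl hydroxylases and lysyl oxidases prepare and cross-link the collagen chains, and metalloproteinases and their inhibitors, the TIMPs, set how fast the matrix is broken down. Epithelial cells that pass through an epithelial-mesenchymal transition (EMT) lose cell junctions, exchange cadherins, assemble vimentin filaments and start to make these proteins under the ZEB, SNAI and TWIST transcription factors. Myofibroblasts add smooth muscle actin and its partners, whose genes respond to TGF-β, to serum response factor and to the mechanically regulated YAP and TEAD proteins. Basal-like breast cancer lines differ in how far they show such features.

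PRKCD itself was lower in the siPRKCD arrays of both lines. In BT-549 cells the log2 signals were 6.89, 6.67 and 7.01 with siPRKCD, against 7.71, 7.73 and 7.76 with siControl, a change of -0.87 ± 0.11 (SE; limma, adjusted p = 5.29e-05), although the siPRKCD level was above background on 1 of 3 arrays. In MDA-MB-468 cells the signals were 7.29, 7.20 and 7.47 with siPRKCD, against 9.15, 9.13 and 8.82 with siControl, a change of -1.72 ± 0.11 (adjusted p = 6.31e-08). The number of probes detected was 15616 to 16595 on BT-549 siPRKCD arrays and 16640 to 17263 on BT-549 siControl arrays, which do not overlap, and was 16562 to 17724 on MDA-MB-468 siPRKCD arrays and 16036 to 17604 on MDA-MB-468 siControl arrays. Its part in the results for BT-549 cells was not tested. Arrays of the same group correlated at 0.988 to 0.997. With 3 arrays a group the smallest two-sided p of an exact permutation test is 0.10, so single genes were tested with limma over all 11459 genes, with a call at a Benjamini-Hochberg adjusted p under 0.05. A rise or fall was judged only where the higher of the groups was detected on all 3 of its arrays.

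In the siControl cultures, which serve here as the baseline, BT-549 cells carried nearly all of these transcripts at a higher level than MDA-MB-468 cells. Of the 51 genes kept, 44 were higher in BT-549 siControl and 2 were lower, whereas among all genes 31.9% were higher and 28.8% were lower. Genes detected in BT-549 alone were kept through their signal in that line, which favours a difference in this direction. The 7 genes that were not kept were near or at background in both, so this count describes the genes and is no test of the list. On the siControl arrays, 22 genes were detected on all 3 arrays of both lines and 21 on all 3 BT-549 arrays and no MDA-MB-468 array. COL4A1, COL4A2 and COL8A1 were detected on all BT-549 and some MDA-MB-468 arrays, COL6A3, DCN, MMP1 and MMP14 on some BT-549 arrays only, and TIMP3 on all MDA-MB-468 arrays only.

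**Figure D1:**
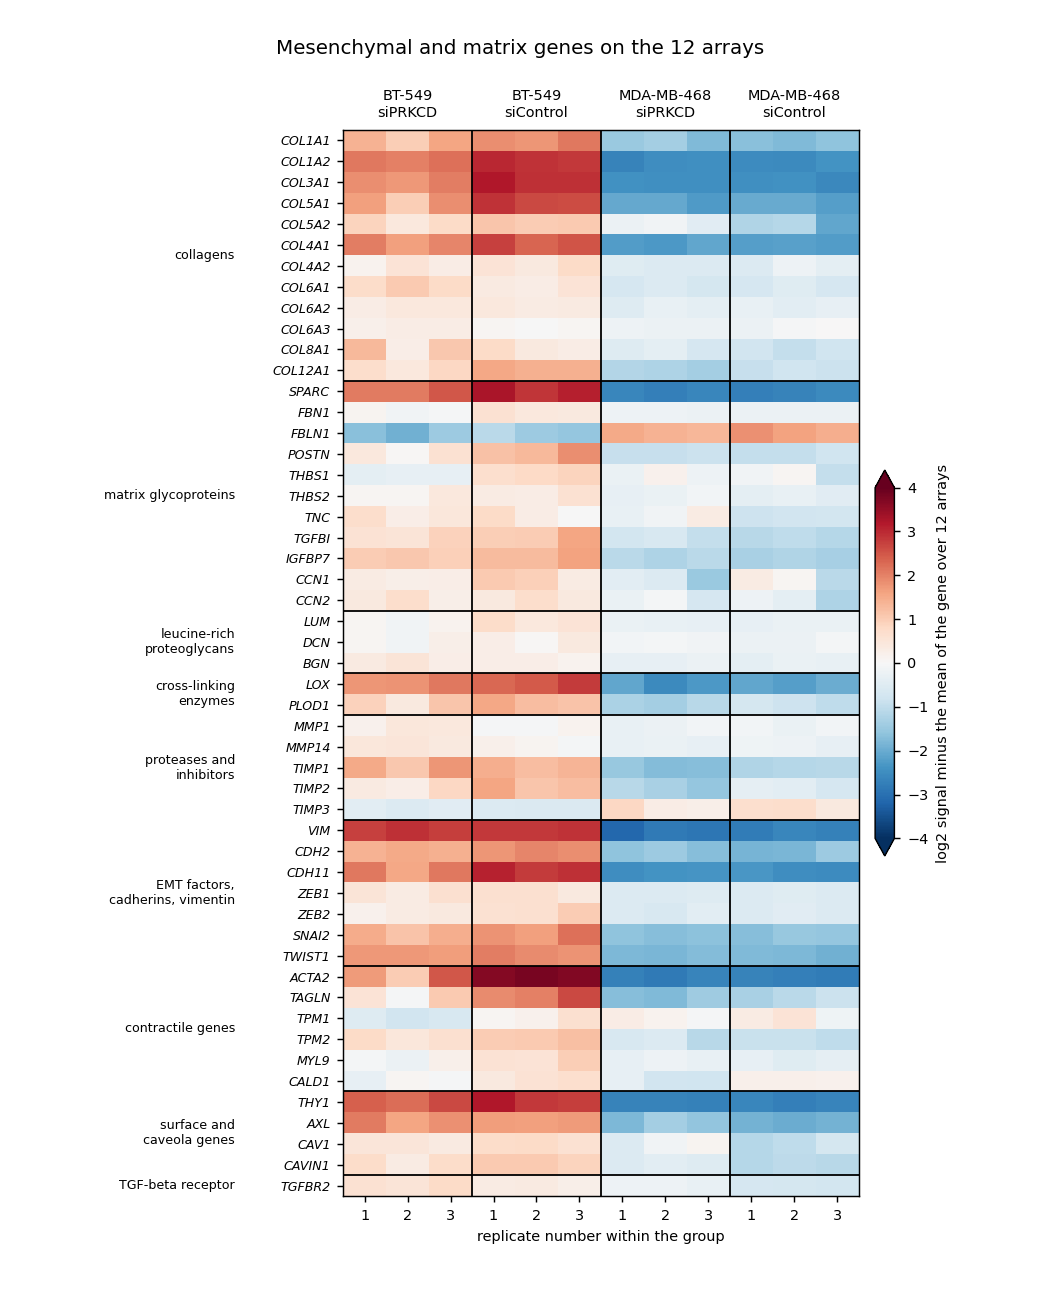
Log2 signal of the 51 genes (rows, grouped by role) on the 12 arrays (columns, 3 replicates in each group), drawn as the difference from the mean of each gene over all arrays. Most rows are red in both BT-549 groups and blue in both MDA-MB-468 groups, with FBLN1 and TIMP3 the other way round, and ACTA2, TAGLN, COL5A1, COL3A1 and SPARC are paler with siPRKCD than with siControl in BT-549.

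The clearest gaps were in smooth muscle actin, in fibrillar collagens and in surface and filament proteins of mesenchymal cells. ACTA2, which encodes smooth muscle α-actin, had signals of 13.20, 13.31 and 13.22 in BT-549 siControl, against 6.85, 6.79 and 6.71 in MDA-MB-468 siControl, where it was at background. For a gene at background the difference is a lower bound, set by the dimmest probes that were above background on each array, and ACTA2 was at least 80.5-fold higher in BT-549. SPARC, a collagen-binding glycoprotein, had 12.56, 12.16 and 12.41, against 6.57, 6.62 and 6.75, and was at least 44.2-fold higher. THY1, a surface protein of fibroblasts, had 12.51, 12.10 and 12.05, against 6.67, 6.55 and 6.66, and was at least 39.6-fold higher. All these BT-549 signals are far above the background, where the MDA-MB-468 signals lie. Type III collagen COL3A1 was at least 36.5-fold higher, with 12.29, 12.01 and 12.01 against 6.62, 6.66 and 6.51, and COL1A2 of type I collagen at least 35.4-fold, with 12.17, 12.02 and 11.98 against 6.62, 6.61 and 6.75. The mesenchymal cadherin CDH11 was at least 33.5-fold higher, with 12.13, 11.84 and 11.95 against 6.71, 6.55 and 6.51. The bound for COL5A1 of type V collagen was 25.1-fold, with 11.73, 11.50 and 11.45 against 6.83, 6.84 and 6.66.

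Some genes of this kind were measured in both lines, so that their differences are values and not bounds. VIM, the vimentin gene, had signals of 14.26, 14.26 and 14.29 in BT-549 siControl, against 8.61, 8.79 and 8.71 in MDA-MB-468 siControl, a 47.3-fold difference (log2 5.56 ± 0.10, adjusted p = 1.91e-16). The lysyl oxidase LOX was 24.3-fold higher in BT-549 (log2 4.60 ± 0.14), COL1A1 12.1-fold (3.59 ± 0.14), the neural cadherin CDH2 11.9-fold (3.57 ± 0.11) and the actin-binding protein transgelin, TAGLN, 9.55-fold (3.26 ± 0.23). Among the transcription factors TWIST1 was at least 11.9-fold higher and SNAI2 at least 8.88-fold higher, while the bound for ZEB1 was 1.65-fold. The receptor tyrosine kinase AXL was at least 9.99-fold higher.

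A smaller group differed little or ran the other way. TPM1, a tropomyosin, had signals of 12.27, 12.35 and 12.81 in BT-549 siControl and 12.50, 12.72 and 12.01 in MDA-MB-468 siControl, which overlap (log2 0.07 ± 0.17, adjusted p = 0.737). Caldesmon, CALD1, differed by 0.34 ± 0.13 (adjusted p = 0.0309), a call that was lost under 9 of the 21 alternatives run. FBLN1, the glycoprotein fibulin 1, had signals of 8.46, 8.09 and 8.01 in BT-549 siControl, against 11.37, 11.15 and 10.97 in MDA-MB-468 siControl, and was thus 7.87-fold lower in BT-549 (log2 -2.98 ± 0.14, adjusted p = 1.67e-11). Of the other kept FBLN1 probes a pair gave -3.49 and -1.74 and 1 gave -0.10. TIMP3, an inhibitor that binds to the matrix, was at background in BT-549 and at least 1.78-fold lower there. The probes used for the collagen VI chains COL6A1 and COL6A2 were at background in MDA-MB-468. Their differences are thus known only as at least 1.70-fold and 1.33-fold higher in BT-549. The other kept COL6A2 probes, both dim, gave 0.33 and -0.01 (adjusted p = 0.00653 and 0.939 over all probes). COL6A3 did not pass the test (0.14 ± 0.09, adjusted p = 0.181).

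**Figure D2:**
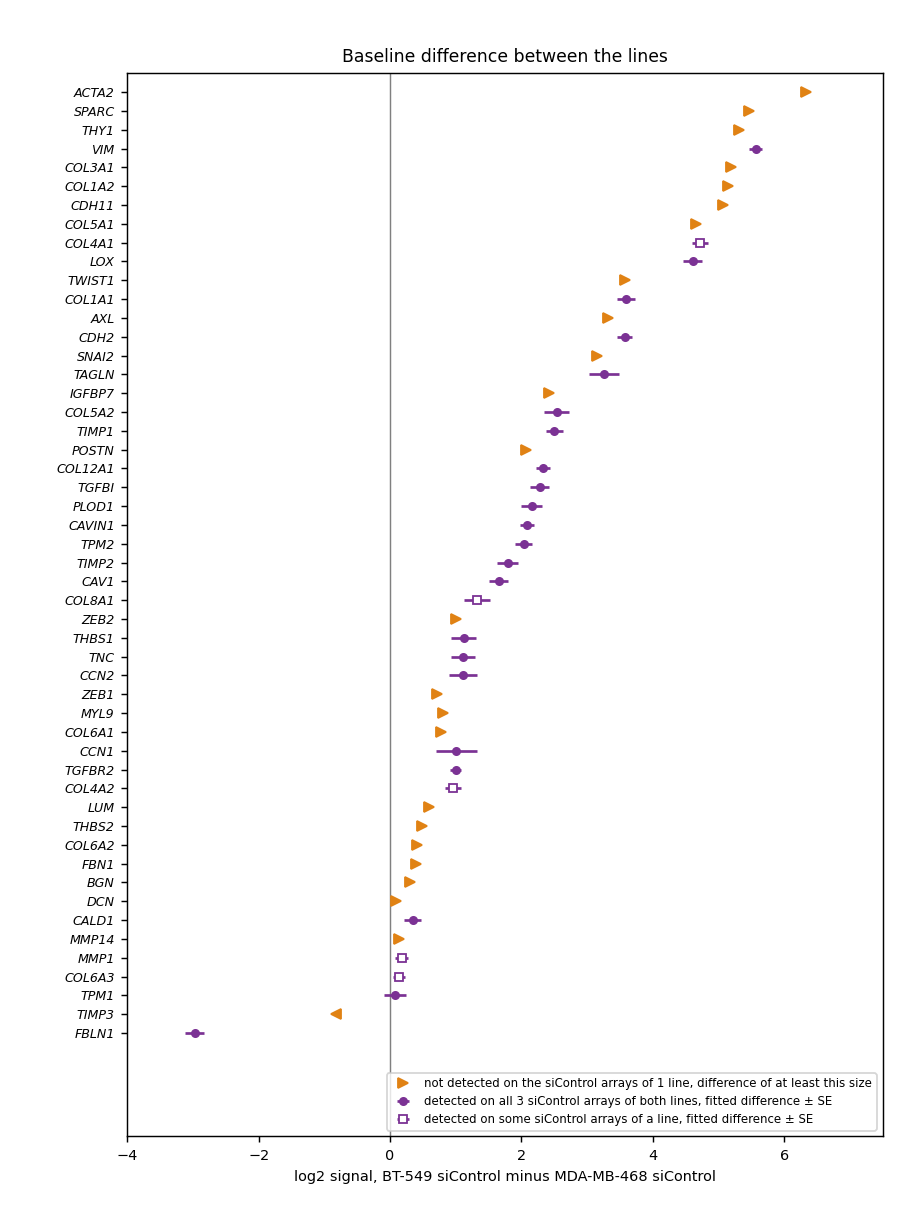
Difference in log2 signal of each of the 51 genes between BT-549 siControl and MDA-MB-468 siControl. Filled circles are genes detected on all siControl arrays of both lines and open squares genes detected on some, both with the SE of the fit, and triangles give the smallest size of the difference for genes at background in 1 line. ACTA2 stands at the top at 6.33 or more and FBLN1 at the bottom at -2.98.

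The lines were checked against markers of the cell types that the samples could hold. Of 9 epithelial markers, 8 were lower in BT-549 siControl, and EPCAM, KRT5, KRT8, KRT18, KRT19, CLDN3 and CLDN7 were detected on no BT-549 array, whereas CDH1, the epithelial cadherin, was detected on all arrays of both lines and was lower in BT-549 (log2 -2.22). None of 4 haematopoietic and 3 endothelial markers was detected on 3 arrays. In MDA-MB-468 cells 6 of the 8 epithelial markers judged fell with siPRKCD, among them KRT5 (-1.59) and CDH1 (-0.71), and in BT-549 cells the single marker judged, CDH1, changed by -0.41 without passing the test (adjusted p = 0.072). The arrays measure RNA from the whole culture, so fewer cells that express a gene and less of its RNA in each cell cannot be told apart.

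In BT-549 cells all 6 contractile genes measured, 6 of 11 collagen genes and 6 of 11 matrix glycoprotein genes fell with siPRKCD. Of 46 genes whose siControl level was detected on all 3 arrays, 28 fell (60.9%), against 17.7% of all genes judged in this way, and the median change was -0.50 for these genes and -0.02 for all. Of 46 genes that could be judged for a rise, 4 rose (8.70%), against 14.5% of all genes. On 32 of the 51 genes every siPRKCD array lay below every siControl array, on 5 every one lay above and on 14 they overlapped. Among all 11459 genes 22% lay below in this way and 19% above. Of the genes detected on all siControl arrays of both lines 13 of 22 fell, of those detected on no MDA-MB-468 siControl array 14 of 21, and of those detected on some 1 of 3.

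Among the contractile genes, ACTA2 had signals of 11.23, 10.53 and 12.01 in BT-549 siPRKCD, against 13.20, 13.31 and 13.22 in BT-549 siControl, which made it 3.97 times lower (log2 -1.99 ± 0.23, adjusted p = 2.11e-05). The siPRKCD arrays spread over more than 1 log2 unit, yet the highest of them was below the lowest siControl array, and over the alternatives the change lay between -2.36 and -1.63. TAGLN had signals of 10.18, 9.59 and 10.68, against 11.52, 11.63 and 12.27, and was 3.16 times lower (-1.66 ± 0.23, adjusted p = 8.49e-05). TPM1 had signals of 11.66, 11.43 and 11.53 with siPRKCD, all below 12.27, 12.35 and 12.81 with siControl (-0.94 ± 0.17, adjusted p = 0.000713). A second bright TPM1 probe gave -0.74, whereas a pair of dimmer probes gave -0.24 and -0.23 and did not pass the test, so the fall was not the same over the probes. The myosin light chain MYL9 had signals of 6.93, 6.80 and 7.22, against 7.59, 7.58 and 7.99 (-0.74 ± 0.12, adjusted p = 0.000419, and -1.36 with neqc background correction), and was detected on 2 of 3 siPRKCD arrays. CALD1 had 10.40, 10.79 and 10.67, against 11.12, 11.29 and 11.40 (-0.65 ± 0.13, adjusted p = 0.00167). The tropomyosin TPM2 had 13.44, 13.12 and 13.31, against 13.70, 13.74 and 13.89 (-0.48 ± 0.13, adjusted p = 0.012, and 0.0558 without BT-549 siPRKCD replicate 2). None of the 6 genes had a siPRKCD array as high as its lowest siControl array. For CALD1 the other probes gave -0.58 and -0.01.

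Of 11 collagen genes judged, 6 fell, and they belong to fibrillar, basement membrane and fibril-associated types. COL5A1 had signals of 10.49, 9.85 and 10.71 in BT-549 siPRKCD, against 11.73, 11.50 and 11.45 in BT-549 siControl (-1.21 ± 0.16, adjusted p = 6.92e-05). COL3A1 had signals of 10.95, 10.82 and 11.13, against 12.29, 12.01 and 12.01 (-1.14 ± 0.10, adjusted p = 3.21e-06). COL1A2 had signals of 11.24, 11.16 and 11.33, against 12.17, 12.02 and 11.98 (-0.81 ± 0.09, adjusted p = 1.96e-05). In these 3 genes the groups did not overlap and every siPRKCD array remained above every MDA-MB-468 array of the same gene. COL12A1, a fibril-associated collagen, had 8.77, 8.50 and 8.91, against 9.63, 9.48 and 9.50 (-0.81 ± 0.11, adjusted p = 5.29e-05). COL4A1 of the basement membrane had 11.13, 10.74 and 11.06, against 11.82, 11.41 and 11.62 (-0.64 ± 0.12, adjusted p = 0.000946). COL1A1 had 10.14, 9.73 and 10.31, against 10.60, 10.52 and 10.85 (-0.59 ± 0.14, adjusted p = 0.00576), and did not pass the test after neqc background correction (adjusted p = 0.06). In these genes too the groups did not overlap. COL5A2, whose chain joins that of COL5A1 in type V collagen and whose gene lies next to COL3A1 on chromosome 2, had signals of 12.69, 12.25 and 12.59, against 12.91, 12.84 and 12.87. These do not overlap, but the change of -0.36 ± 0.19 did not pass the test (adjusted p = 0.181). It passed with only the arrays compared (adjusted p = 0.0454), with the replicate block (0.0345) and without MDA-MB-468 siControl replicate 3 (0.0262). A pairing of the BT-549 arrays by replicate number was not shown, and the block fit gives both lines the same SE. Block values for BT-549, here and below, carry this limit.

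The collagen VI genes did not follow. COL6A1 rose, with signals of 8.02, 8.34 and 8.04 in BT-549 siPRKCD, against 7.63, 7.58 and 7.83 in BT-549 siControl (0.45 ± 0.11, adjusted p = 0.00492, and 0.70 with neqc). Its neighbour on chromosome 21, COL6A2, changed by -0.01 ± 0.09, and COL6A3 by 0.21 ± 0.09 (adjusted p = 0.0904, and 0.0133 after neqc, as a rise of 0.61). COL8A1 and COL4A2 changed by 0.39 ± 0.20 and -0.24 ± 0.12 without passing the test, but COL8A1 rose without BT-549 siPRKCD replicate 2 (0.71, adjusted p = 0.00209), with the replicate block (adjusted p = 0.0409) and as the mean of its probes (0.54, adjusted p = 0.00337).

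Of 11 matrix glycoproteins judged, 6 fell. Thrombospondin 1, THBS1, which binds cells and latent TGF-β, had signals of 10.26, 10.35 and 10.34 in BT-549 siPRKCD, against 11.32, 11.46 and 11.57 in BT-549 siControl (-1.13 ± 0.19, adjusted p = 0.000526). Periostin, POSTN, had signals of 7.94, 7.57 and 8.14, against 8.71, 8.82 and 9.39 (-1.10 ± 0.16, adjusted p = 0.000124). SPARC had signals of 11.38, 11.36 and 11.79, against 12.56, 12.16 and 12.41 (-0.87 ± 0.12, adjusted p = 0.000121). In all 3 the groups were separate, with the SPARC levels still far above the MDA-MB-468 background. FBN1, the fibrillin of microfibrils, had 6.94, 6.68 and 6.79, against 7.43, 7.25 and 7.22 (-0.50 ± 0.09, adjusted p = 0.000879, and -1.33 with neqc), and was detected on 1 of 3 siPRKCD arrays. TGFBI, a TGF-β-induced glycoprotein, had 10.37, 10.29 and 10.69, against 10.76, 10.79 and 11.37 (-0.52 ± 0.15, adjusted p = 0.0159). IGFBP7, which binds growth factors, had 8.96, 9.04 and 8.90, against 9.21, 9.23 and 9.56 (-0.37 ± 0.10, adjusted p = 0.0142). The TGFBI and IGFBP7 calls were lost without BT-549 siControl replicate 3 (adjusted p = 0.0746 and 0.0711), where the changes were -0.33 and -0.26, that of TGFBI also without BT-549 siPRKCD replicate 1 or 2 (0.0533 and 0.0663), and that of IGFBP7 also without BT-549 siPRKCD replicate 3 (0.0505) and after neqc (0.0716).

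CCN1 and CCN2, matricellular proteins whose genes are widely used as readouts of YAP and TEAD, did not pass the test in BT-549. CCN2 had signals of 12.97, 13.27 and 12.82 with siPRKCD, against 12.96, 13.28 and 12.97 with siControl (-0.05 ± 0.22, adjusted p = 0.901). CCN1 had signals of 11.45, 11.35 and 11.38, against 12.17, 12.06 and 11.46 (-0.50 ± 0.31, adjusted p = 0.262), with a single siControl array close to the siPRKCD arrays, and passed as a fall with only the arrays compared (adjusted p = 0.046) and with the replicate block (0.00496). Tenascin C, TNC, changed by 0.14 ± 0.18 and THBS2 by -0.22 ± 0.12, again without passing, though THBS2 passed without BT-549 siPRKCD replicate 3 (-0.34, adjusted p = 0.0444). FBLN1 changed by -0.34 ± 0.14 (adjusted p = 0.0895), and passed with the replicate block (0.038) and without BT-549 siPRKCD replicate 3 (-0.45, adjusted p = 0.0377). Among the small proteoglycans that bind collagen fibrils, lumican, LUM, had 7.03, 6.81 and 7.07 with siPRKCD, against 7.66, 7.36 and 7.47 with siControl (-0.53 ± 0.10, adjusted p = 0.000867, and -1.23 with neqc), and was detected on 2 of 3 siPRKCD arrays. Biglycan, BGN, changed by 0.16 ± 0.09 without passing, and decorin, DCN, was not judged, since it was detected on 2 of 3 siControl arrays.

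The enzymes and inhibitors that act on the matrix were divided. LOX, which oxidises lysines of collagen and elastin for cross-linking, had signals of 11.17, 11.19 and 11.52 in BT-549 siPRKCD, against 11.70, 11.86 and 12.21 in BT-549 siControl (-0.63 ± 0.14, adjusted p = 0.00345, and 0.0668 after neqc). PLOD1, a lysyl hydroxylase, had 12.35, 11.81 and 12.53, against 12.96, 12.68 and 12.56 (-0.50 ± 0.16, adjusted p = 0.0275). Without BT-549 siPRKCD replicate 2 its change was -0.29 (adjusted p = 0.139), without BT-549 siControl replicate 1 it was -0.39 (adjusted p = 0.136), and without BT-549 siControl replicate 2 it was -0.53 (adjusted p = 0.0555). The PLOD1 call was lost under 7 of the 21 alternatives in all. TIMP2 had signals of 10.83, 10.71 and 11.30, against 12.04, 11.58 and 11.68 (-0.82 ± 0.16, adjusted p = 0.00135), although a second, dimmer probe gave -0.25 without passing. TIMP1 had 12.36, 11.93 and 12.60, against 12.31, 12.08 and 12.21, which overlap (0.10 ± 0.13, adjusted p = 0.649).

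The collagenase MMP1 and the membrane-anchored protease MMP14 rose from levels near background. MMP14 had signals of 7.43, 7.45 and 7.36 in BT-549 siPRKCD, against 7.16, 7.09 and 6.90 in BT-549 siControl (0.36 ± 0.09, adjusted p = 0.00689), and was detected on 3 and 2 arrays of these groups. MMP1 had 7.05, 7.32 and 7.31, against 6.82, 6.84 and 7.004 (0.34 ± 0.10, adjusted p = 0.0211), and was detected on 3 and 1 arrays. The MMP1 call was lost without BT-549 siPRKCD replicate 2 or 3 (adjusted p = 0.0778 and 0.0736) and without BT-549 siControl replicate 1 or 2 (0.0853 and 0.0779). With neqc the changes of MMP14 and MMP1 were 0.85 and 0.91. With the arrays centred on their medians in place of quantile normalization, none of the 4 rises in BT-549, COL6A1, MMP1, MMP14 and the TGF-β receptor TGFBR2, passed the test. This scaling also moved the share of rises among all genes called in BT-549, which was 43.7% with quantile normalization and 21.8% with median centring, while 27 of the genes described here fell under it.

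Of 7 EMT genes judged, 4 fell. CDH11 had signals of 11.14, 10.59 and 11.13 in BT-549 siPRKCD, against 12.13, 11.84 and 11.95 in BT-549 siControl (-1.02 ± 0.13, adjusted p = 4.72e-05). The transcription factor SNAI2, a repressor of epithelial genes, had 9.66, 9.30 and 9.62, against 9.98, 9.82 and 10.38 (-0.53 ± 0.13, adjusted p = 0.00684), and ZEB2, another such repressor, had 7.34, 7.48 and 7.54, against 7.78, 7.80 and 8.16 (-0.46 ± 0.11, adjusted p = 0.00534, and -0.78 with neqc). The groups were separate in these 3 genes. CDH2 had 11.91, 12.06 and 11.96, against 12.30, 12.49 and 12.38 (-0.41 ± 0.11, adjusted p = 0.0123, 0.0607 without BT-549 siControl replicate 2 and 0.0552 after neqc). In contrast with these, VIM had 14.15, 14.33 and 14.19, against 14.26, 14.26 and 14.29, which overlap, and its change was -0.05 ± 0.10 (adjusted p = 0.769). TWIST1 and ZEB1 changed by -0.19 ± 0.09 and -0.07 ± 0.10 without passing the test.

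Among surface and caveola genes, THY1 had signals of 11.70, 11.52 and 11.92 in BT-549 siPRKCD, against 12.51, 12.10 and 12.05 in BT-549 siControl (-0.50 ± 0.12, adjusted p = 0.00615). CAVIN1, which coats caveolae, had 13.06, 12.64 and 13.04, against 13.37, 13.35 and 13.19 (-0.39 ± 0.11, adjusted p = 0.0143). The CAVIN1 call was lost without BT-549 siPRKCD replicate 2 (adjusted p = 0.0695) and without BT-549 siControl replicate 1 or 2 (0.06 and 0.055). CAV1, the main protein of caveolae, had 12.78, 12.79 and 12.65, against 13.04, 13.06 and 12.90, which do not overlap, and its change of -0.26 ± 0.15 did not pass the test (adjusted p = 0.206, and 0.0351 with the replicate block). AXL had signals of 10.65, 10.15 and 10.38 in BT-549 siPRKCD and 10.23, 10.19 and 10.27 in BT-549 siControl, which overlap (0.16 ± 0.12, adjusted p = 0.376), while the mean of its probes rose by 0.35 (adjusted p = 0.00532). TGFBR2 had 11.30, 11.22 and 11.46, against 11.02, 11.03 and 10.91, and was higher on every siPRKCD array (0.34 ± 0.09, adjusted p = 0.00945).

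Of the 28 genes that fell in BT-549, 20 passed the test under each of the alternatives in which they were tested. BT-549 siPRKCD replicate 2, which had the fewest probes detected (15616), was the lowest of its group on 22 of the 28. Without it 24 genes fell, all of them among the 28.

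**Figure D3:**
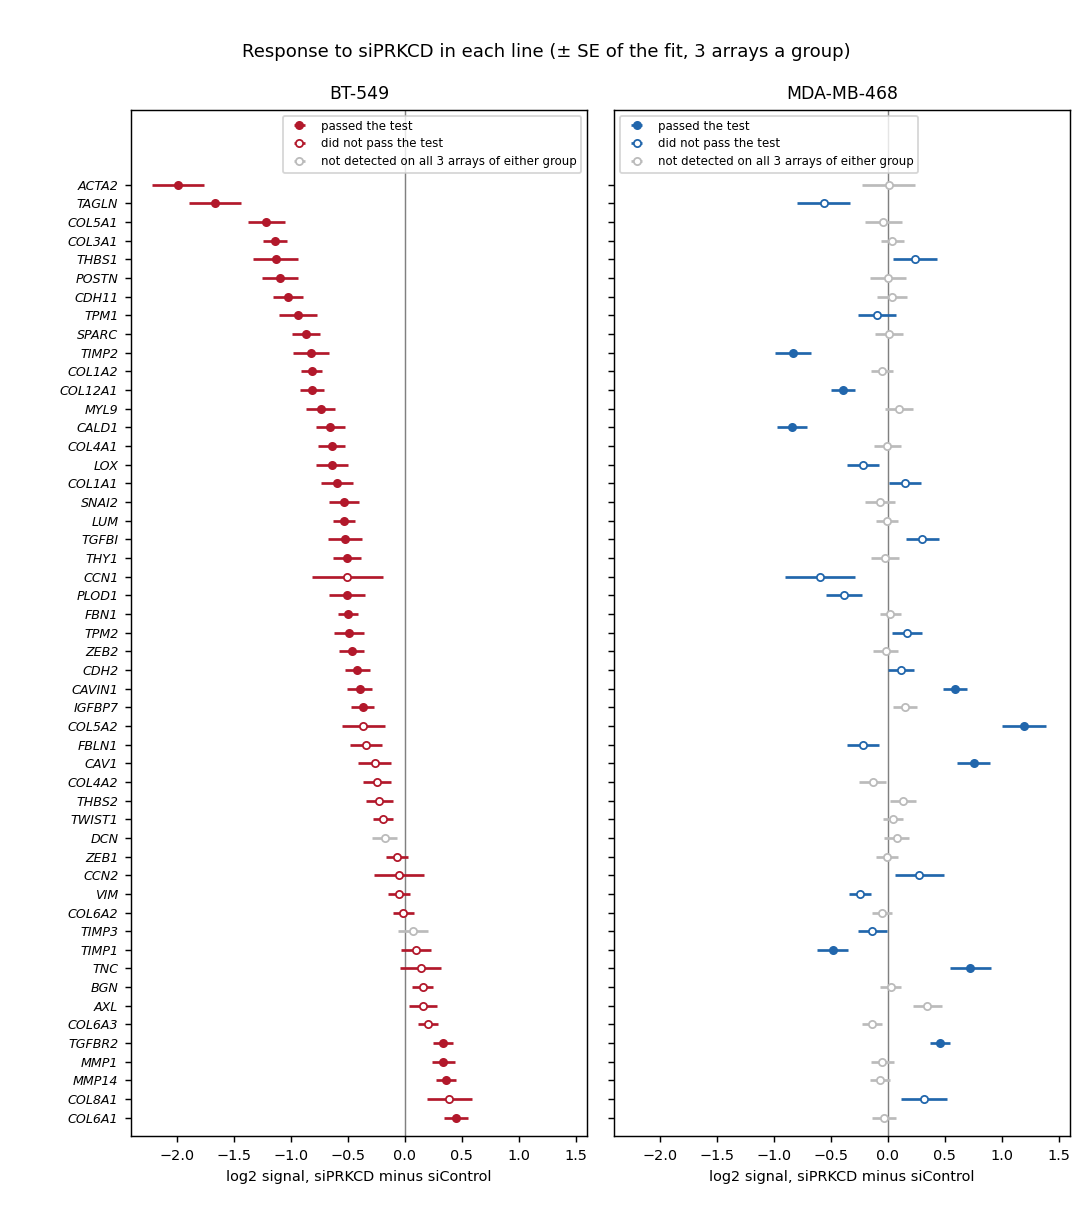
Change in log2 signal of each of the 51 genes with siPRKCD, as siPRKCD minus siControl with the SE of the fit, in BT-549 (left) and MDA-MB-468 (right), ordered by the change in BT-549. Filled points passed the test, open coloured points did not, and grey points were not detected on all arrays of either group. In BT-549 28 genes lie filled on the left of 0 and 4 on the right, and in MDA-MB-468 4 and 5.

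In MDA-MB-468 cells fewer of these genes could be judged and they moved in both directions. Of 23 genes judged for a fall 4 fell (17.4%), against 16.5% of all genes, and of 22 judged for a rise 5 rose (22.7%), against 15.1% of all genes, shares near those of the whole array. With the replicate number as a block, which the pairing of the MDA-MB-468 arrays allows, 8 of 23 fell, against 19.8% of all genes in that fit, and 6 of 22 rose, against 19%.

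COL5A2 had the largest rise among these genes. Its signals were 11.58, 11.66 and 11.36 in MDA-MB-468 siPRKCD, against 10.61, 10.67 and 9.73 in MDA-MB-468 siControl, a 2.29-fold difference (log2 1.20 ± 0.19, adjusted p = 0.000259). The groups are apart, and siControl replicate 3 is low; without it the change was 0.89 and still passed the test. The other detected fibrillar chain, COL1A1, changed by 0.15 ± 0.14, while COL1A2, COL3A1 and COL5A1 were at background on all 6 arrays. CAV1 had 11.74, 12.16 and 12.41, against 11.17, 11.27 and 11.61 (0.76 ± 0.15, adjusted p = 0.00124), and a second probe gave 0.65. CAVIN1, its partner, had 11.75, 11.90 and 11.79, against 11.19, 11.28 and 11.21 (0.59 ± 0.11, adjusted p = 0.000959). Both caveola genes were higher on every siPRKCD array than on every siControl array.

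TGFBR2 rose here too, with 10.48, 10.49 and 10.39 in MDA-MB-468 siPRKCD, against 10.01, 9.997 and 9.96 in MDA-MB-468 siControl (0.46 ± 0.09, adjusted p = 0.00109). It was the single gene of the list that rose in both lines. TNC had 7.88, 8.05 and 8.51, against 7.35, 7.44 and 7.47 (0.72 ± 0.18, adjusted p = 0.00783, and 1.17 with neqc), but its second probe gave 0.26 and did not pass. AXL was at background on all siControl arrays and above it on 2 of 3 siPRKCD arrays, and was not judged. Without MDA-MB-468 siPRKCD replicate 1 AXL was judged and rose (0.45, adjusted p = 0.0224). TIMP3, which BT-549 cells lacked, changed by -0.13 ± 0.13 (adjusted p = 0.513).

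The falls in MDA-MB-468 cells were in inhibitors, in a contractile gene and in a collagen. CALD1 had signals of 10.40, 9.95 and 9.92 in MDA-MB-468 siPRKCD, against 10.95, 10.94 and 10.90 in MDA-MB-468 siControl (-0.84 ± 0.13, adjusted p = 0.000222). TIMP2 had 9.36, 9.17 and 8.92, against 10.11, 10.05 and 9.78 (-0.83 ± 0.16, adjusted p = 0.00122). TIMP1 had 9.35, 9.13 and 9.16, against 9.64, 9.70 and 9.75 (-0.48 ± 0.13, adjusted p = 0.0148, 0.0609 without MDA-MB-468 siPRKCD replicate 2 and 0.0954 with median centring). The groups did not overlap in any of the 3, and CALD1, TIMP2 and COL12A1 fell in both lines, as did TAGLN, PLOD1 and CCN1 in the fit with the replicate block. In MDA-MB-468 a second, dimmer TIMP2 probe gave -0.25 and did not pass (adjusted p = 0.111 over all probes). The other CALD1 probes gave -0.67, which passed, and -0.12, which did not (adjusted p = 0.000286 and 0.686 over all probes). COL12A1 had 6.90, 6.83 and 6.73, against 7.14, 7.28 and 7.21 (-0.39 ± 0.11, adjusted p = 0.0116, and -1.11 with neqc), was detected on 1 of 3 siPRKCD arrays, and gave an adjusted p of 0.0501 without MDA-MB-468 siControl replicate 2.

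The block changed the call of 5 further genes in MDA-MB-468. TAGLN had signals of 7.91, 7.86 and 8.20 with siPRKCD, against 8.33, 8.56 and 8.77 with siControl (-0.56 ± 0.23, adjusted p = 0.0837, and 0.00189 with the block). It also passed with only the arrays compared (adjusted p = 0.0126) and without BT-549 siPRKCD replicate 2 or 3 (0.032 and 0.045). CCN1 had 10.69, 10.57 and 9.62, against 11.44, 11.19 and 10.03, so that replicate 3 was low in both groups (-0.60 ± 0.31, adjusted p = 0.182, and 0.00155 with the block), and without MDA-MB-468 siControl replicate 3 it passed too (-1.03, adjusted p = 0.0085). PLOD1 and VIM changed by -0.39 ± 0.16 and -0.24 ± 0.10 (adjusted p = 0.0835 and 0.0748, and 0.0402 and 0.043 with the block). PLOD1 also passed with only the arrays compared (adjusted p = 0.0276) and without BT-549 siPRKCD replicate 2 (0.0232). TGFBI had 9.04, 9.13 and 8.83, against 8.68, 8.77 and 8.64 (0.30 ± 0.15, adjusted p = 0.152, and 0.0192 with the block). FBLN1 changed by -0.22 ± 0.14 (adjusted p = 0.284), while its second brightest probe gave -0.62 (adjusted p = 0.00206 over all probes).

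The responses of the lines were set against each other for the 22 genes that both expressed on all siControl arrays. Of these, 10 differed (45.5%), against 9.62% of all 8402 genes judged in this way, and in all 10 the response in BT-549 was the lower one. With the MDA-MB-468 response subtracted from the BT-549 response, the difference was -1.56 ± 0.27 for COL5A2 (adjusted p = 0.00157), -1.37 ± 0.28 for THBS1 (adjusted p = 0.00471), -1.02 ± 0.21 for CAV1 (adjusted p = 0.00489) and -0.98 ± 0.15 for CAVIN1 (adjusted p = 0.000788). These 4 passed the test under all 20 alternatives. THBS1 in MDA-MB-468 had signals of 10.40, 10.83 and 10.46 with siPRKCD, against 10.54, 10.75 and 9.70 with siControl, which overlap (0.24 ± 0.19).

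The difference for TGFBI (-0.83 ± 0.21) was lost under 1 alternative, without MDA-MB-468 siPRKCD replicate 2 (adjusted p = 0.0543), and those for TAGLN, TPM1, COL1A1, TPM2 and CDH2 under 8 to 13. For CALD1, TIMP2 and TGFBR2, which moved the same way in both lines, the differences were 0.19 ± 0.18, 0.01 ± 0.23 and -0.12 ± 0.12 (adjusted p = 0.592, 0.983 and 0.599), and that of TIMP2 was -0.10 with median centring. The number of differing genes fell to 4 without MDA-MB-468 siPRKCD replicate 2, against 10 with all arrays, and to 5 without MDA-MB-468 siPRKCD replicate 1 or BT-549 siControl replicate 3, and it was 6 without MDA-MB-468 siControl replicate 1 or 2.

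**Figure D4:**
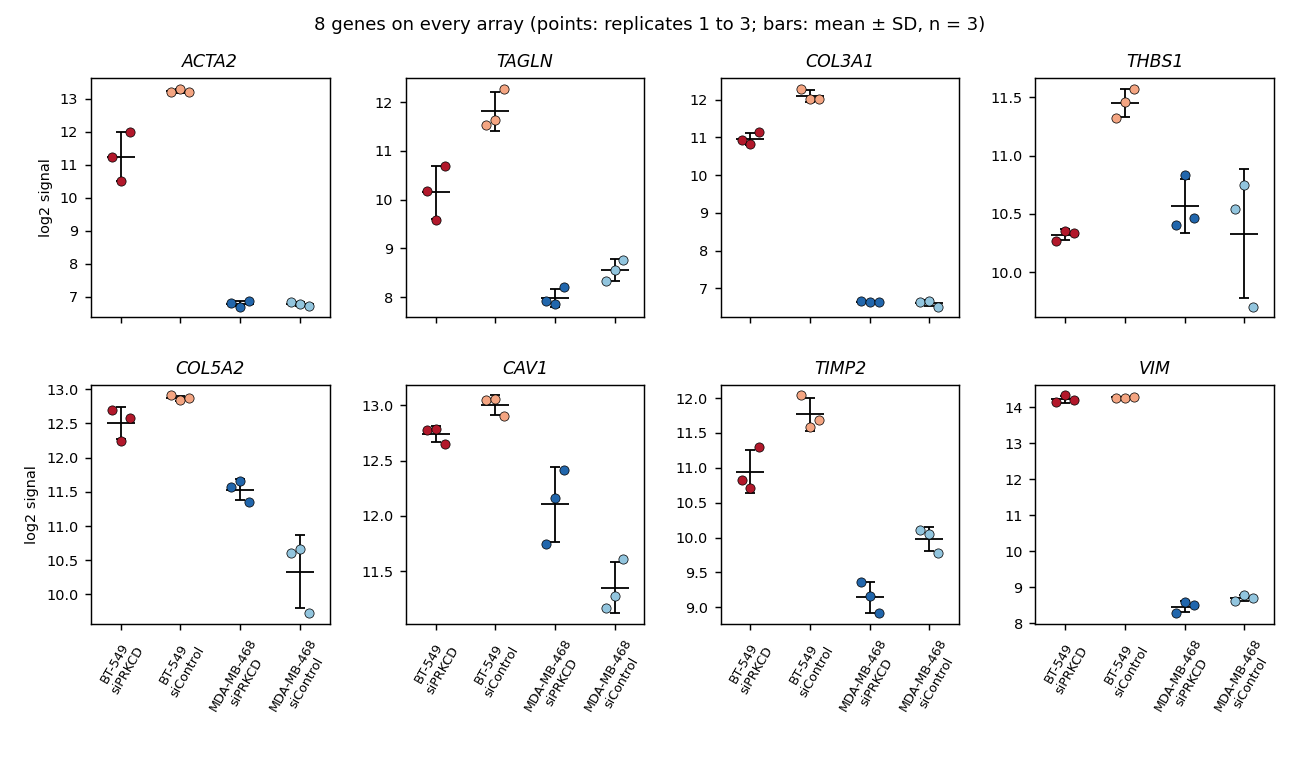
Log2 signal of 8 genes on each array, with the siPRKCD group left of the siControl group of the same line, points for replicates 1 to 3 from left to right, and bars for the mean ± SD (n = 3). The vertical scale differs between genes. ACTA2, TAGLN, COL3A1 and THBS1 are lower with siPRKCD in BT-549, COL5A2 and CAV1 are higher with siPRKCD in MDA-MB-468, TIMP2 is lower in both and the VIM arrays of both BT-549 groups overlap.

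Promoter sequences are shown for the gene with the largest fall, ACTA2, for SPARC and THBS1, which also fell in BT-549, and for the stretch between the start sites of COL4A1 and COL4A2, because these neighbours are read in opposite directions from 1 short stretch and COL4A1 alone passed the test in BT-549. They are from RefSeq annotation of GRCh38.p14, where 37 of the 58 genes had at least 1 of the 56 promoter entries. The first 3 are the 250 bases before the start, 5′ to 3′ on the strand of the gene, and capitals mark CATTCC or its reverse complement GGAATG, the motif bound by TEAD proteins. For these 3 genes only promoter entries that hold this motif are shown, so its presence in them is no result. The last is the 126 bases between the start sites on the plus strand, with capitals for CCAAT.
ACTA2, chr10:88952774-88953023, minus strand: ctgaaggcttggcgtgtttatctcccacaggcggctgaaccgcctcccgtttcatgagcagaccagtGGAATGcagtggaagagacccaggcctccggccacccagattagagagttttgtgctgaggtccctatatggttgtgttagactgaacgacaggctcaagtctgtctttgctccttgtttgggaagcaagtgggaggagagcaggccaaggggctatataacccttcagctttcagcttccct
SPARC, chr5:151686916-151687165, minus strand: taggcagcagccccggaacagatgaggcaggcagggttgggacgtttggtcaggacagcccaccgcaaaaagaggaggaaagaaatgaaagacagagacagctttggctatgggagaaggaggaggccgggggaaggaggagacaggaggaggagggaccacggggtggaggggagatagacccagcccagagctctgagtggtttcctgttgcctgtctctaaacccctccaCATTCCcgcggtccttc
THBS1, chr15:39580829-39581078, plus strand: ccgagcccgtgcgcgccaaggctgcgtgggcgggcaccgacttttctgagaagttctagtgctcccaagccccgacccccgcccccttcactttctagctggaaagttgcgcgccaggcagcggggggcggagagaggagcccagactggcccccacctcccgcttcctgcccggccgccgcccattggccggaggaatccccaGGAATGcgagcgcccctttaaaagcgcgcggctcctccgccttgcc
COL4A1 and COL4A2, chr13:110307158-110307283, plus strand: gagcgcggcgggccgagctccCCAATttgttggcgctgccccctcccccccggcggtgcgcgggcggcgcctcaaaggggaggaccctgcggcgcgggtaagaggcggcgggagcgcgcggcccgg

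Searched on both strands, CATTCC stood in 10 of the 56 promoters (17.9%), in 9 genes, against 11.9% of all 35116 promoters of the same length. The 9 genes are ACTA2, AXL, CALD1, CCN2, COL12A1, FBN1, SPARC, THBS1 and THBS2, of which ACTA2, CALD1, COL12A1, FBN1, SPARC and THBS1 fell in BT-549 and AXL, CCN2 and THBS2 did not pass the test. Of 16 genes that fell in BT-549 and had a promoter entry, 6 held CATTCC and the others did not, and of all 37 genes with an entry 9 did. These counts are over genes, some with more than 1 entry, so the 11.9% of single promoters is no background for them. Whether the motif is more frequent among the falls was not tested. CCAAT stood in 16 of the 56 (28.6%) and 11240 of all 35116, and TATAAA in 6 (10.7%), against 10.7% of all. The matches describe the letters in these windows. In COL4A1 and COL4A2, which flank the shared stretch, the changes in BT-549 were -0.64 ± 0.12 (adjusted p = 0.000946) and -0.24 ± 0.12 (adjusted p = 0.158). Whether these changes differ from each other was not tested. The COL4A2 probe was much dimmer, with a BT-549 siControl mean of 7.80, against 11.62 for COL4A1. With neqc the changes were -0.66 for COL4A1 and -0.41 for COL4A2 (adjusted p = 0.0191 and 0.235).

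Further genes of the same pathways were read from lists of their own. Their counts stand against falls in 17.7% and rises in 14.5% of all genes judged in BT-549, and against falls in 16.5% and rises in 15.1% of those judged in MDA-MB-468. Of 24 proteoglycans and other matrix glycoproteins judged for a fall in BT-549, 13 fell, and 5 of 21 judged for a rise rose, including falls of the follistatin-like glycoprotein FSTL1 (-1.65), the secreted protein SPON2 (-1.08), the syndecan SDC4 (-1.06), the membrane proteoglycan CSPG4 (-1.03) and the fibulin EFEMP1 (-0.98), and a rise of the hyaluronan synthase HAS3 (0.62). In MDA-MB-468 7 genes of that list could be judged for a fall, of which SDC1 (-0.51) and SDC4 (-0.54) fell, while of 9 judged for a rise GPC4 (0.72) and HAS3 (0.39) rose. The median change of its judged genes was -0.44 in BT-549 cells, against -0.11 in MDA-MB-468 cells.

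Among 20 genes of collagen synthesis and modification judged for a fall in BT-549, 6 fell. P4HA2, a prolyl hydroxylase of collagen, changed by -1.78 in BT-549 cells and by -0.97 in MDA-MB-468 cells and passed the test in both, as did the collagen galactosyltransferase COLGALT1 (-0.56 and -0.64). The collagen chaperone SERPINH1 changed by -0.56 in BT-549 (adjusted p = 0.0042) and by 0.19 in MDA-MB-468 (adjusted p = 0.30). The prolyl hydroxylase P3H2 changed by -0.28 in BT-549 (adjusted p = 0.12) and rose by 0.90 in MDA-MB-468. Of laminin and basement membrane genes judged for a fall, 5 of 10 fell in BT-549 cells and 5 of 9 in MDA-MB-468 cells, where 2 of 11 judged for a rise rose, and LAMB2 (-0.81 and -0.86) and LAMC1 (-0.65 and -0.40) were among the falls of both. LAMA5 changed by -1.58 in BT-549 and by -0.24 in MDA-MB-468 (adjusted p = 0.40), a difference of -1.35 (adjusted p = 0.0037), and the proteoglycan agrin, AGRN, changed by -0.31 in BT-549 (adjusted p = 0.064) and by -1.10 in MDA-MB-468, a difference of 0.79 (adjusted p = 0.0073).

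A list of serum response factor and YAP targets also held SRF, YAP1, WWTR1 and TEAD1, which are regulators themselves. Of its 21 genes judged for a fall in BT-549, 8 fell, and 2 of 20 judged for a rise rose. The focal adhesion protein zyxin, ZYX, changed by -1.06, calponin 2, CNN2, by -0.91 and the LIM protein FHL2 by -0.64, whereas the transglutaminase TGM2 rose by 1.05. In MDA-MB-468 4 of 22 fell and 1 of 22 rose. In the TGF-β pathway 6 of 21 genes judged for a fall in BT-549 fell and 4 of 20 judged for a rise rose, and in MDA-MB-468 1 of 14 fell and 2 of 12 rose. SMAD6, an inhibitory SMAD, changed by -0.98 in BT-549 and by 1.06 in MDA-MB-468 and passed the test in each, with a difference between the lines of -2.03 (adjusted p = 5.6e-05), while the other inhibitory SMAD, SMAD7, rose by 0.89 in BT-549 and changed by 0.02 in MDA-MB-468. Of 7 further EMT regulators judged in BT-549, TCF4 (-0.32) and SOX9 (-0.53) fell. Among other proteases and inhibitors 4 of 16 judged fell in BT-549 and 7 of 14 in MDA-MB-468, where the protease MMP7 changed by -1.92. The membrane-bound inhibitor RECK fell in both (-0.95 and -0.61), and the protease ADAM19 rose by 1.13 in BT-549.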

How the data were processed

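Total RNA of MDA-MB-468 and BT-549 cells was amplified, labelled and hybridized to Illumina HT-12 v4 arrays by the authors. The deposited files hold raw bead signal intensities, a detection p-value beside each of them, and signal intensities that the authors had normalized. The scanner software is not given in the sources used here. Raw signals were quantile-normalized across all 12 arrays without background correction, since the methods name none, and log2 values were taken, which differed from those of the authors' normalized table by at most 0.00827. The lowest signal was 66.2, so no floor was needed. Of 47323 probes, 30113 had a single gene symbol, 8 had several and 17202 none, and the last 2 kinds were left out. Probes detected (p under 0.01) on at least 3 of 12 arrays were kept (19439, 15378 with a symbol), and the brightest kept probe by mean signal stood for each of 11459 genes.

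Group means were fitted with limma 3.58.1 in R 4.3.3 (lmFit, then eBayes, with 8 residual degrees of freedom and 7.64 from the prior) over the 12 arrays, with the Benjamini-Hochberg adjustment over all genes. The contrasts were BT-549 siControl minus MDA-MB-468 siControl, the siPRKCD response of each line (siPRKCD minus siControl), and the BT-549 response minus the MDA-MB-468 response. The fit was tested on simulated data. A gene at background on all arrays of 1 group was given a bound. In MDA-MB-468 the deviations of arrays with the same replicate number from their group means correlated at 0.367, 0.287 and 0.492, so the numbers pair the arrays of that line. In BT-549 they correlated at 0.281, 0.0099 and 0.0464 and do not pair them. Across lines the siControl arrays correlated at 0.105, 0.116 and 0.162.

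Values on every array are given for PRKCD, for members that passed a siPRKCD or interaction test and for the 8 largest baseline differences, and from the other lists up to 4 genes with the smallest adjusted p in each contrast were open to be named. Array values of further members, such as VIM, AXL and CCN2, were added after their values had been seen. The members and all gene lists were chosen with earlier results of these data known. Alternatives were median centring, neqc background correction, the authors' table, other detection filters, the mean of the probes of a gene, only the arrays compared, the replicate block, and leaving out each array in turn. The number of arrays limits the precision. Promoters and symbols are from RefSeq (GRCh38.p14), and figures were drawn with matplotlib 3.10.9.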

Additional observations from a re-analysis of the deposited data

Results flagged for a closer look

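For 10 genes expressed in both lines, the response to siPRKCD differed between BT-549 and MDA-MB-468 cells by the interaction term of the limma fit, which tests the difference itself. The difference (BT-549 response minus MDA-MB-468 response, log2) was -1.56 for COL5A2, -1.37 for THBS1, -1.10 for TAGLN, -1.02 for CAV1 and -0.98 for CAVIN1. It was -0.84 for TPM1, -0.83 for TGFBI, -0.74 for COL1A1, -0.65 for TPM2 and -0.53 for CDH2. The adjusted p-values ran between 0.000788 for CAVIN1 and 0.0432 for CDH2. Since the fall of PRKCD also differed between the lines, line and degree of knockdown cannot be told apart here. COL5A2 and CAV1 passed the test in MDA-MB-468 alone, as a rise, and CAVIN1 passed it in both lines, as a fall of 0.39 in BT-549 and a rise of 0.59 in MDA-MB-468. The other 7 passed it in BT-549 alone, as falls, in the fit over all 12 arrays without the replicate block. TAGLN also passed as a fall in MDA-MB-468 with only the arrays compared (adjusted p = 0.0126). It passed there too without BT-549 siPRKCD replicate 2 or 3 (0.032 and 0.045). TPM2 passed as a rise there without MDA-MB-468 siPRKCD replicate 3 (0.34, adjusted p = 0.038). A second bright TPM2 probe rose by 0.44 in MDA-MB-468 (adjusted p = 0.0261 over all probes), while a dimmer probe gave 0.14 without passing. With the block COL5A2 and CAV1 also passed as falls in BT-549 (adjusted p = 0.0345 and 0.0351). Pairing by replicate number was not shown for that line. COL5A2 passed as a fall there too with only the arrays compared (0.0454) and without MDA-MB-468 siControl replicate 3 (0.0262).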

How the results depend on the processing

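No call changed direction under the alternatives in which its gene was tested. Changes that had not passed the test did in part: 28 genes had another sign under at least 1 alternative, in 76 cases, of which 0 passed the test in either fit. Among them the difference between the responses of COL12A1, -0.42, was 0.15 with neqc. With only the probes detected on all 12 arrays, which leaves fewer genes to test, 18 genes were higher and 1 lower in BT-549 siControl, and with siPRKCD in BT-549 1 rose and 11 fell. With median centring 0 genes rose in BT-549 and 6 responses differed between the lines, and with neqc or without a detection filter 5 differed. Leaving out 1 array at a time, 42 to 44 genes were higher and 2 to 2 lower in BT-549 siControl, 5 to 6 rose and 3 to 6 fell in MDA-MB-468, 3 to 4 rose and 24 to 29 fell in BT-549, and 4 to 9 responses differed between the lines. The causes of these changes, apart from the smaller number of genes, were not tested. With the replicate block 8 genes fell in MDA-MB-468, and 6 rose there, 5 rose and 32 fell in BT-549 (all genes judged: 18.4% and 21.4%), 13 responses differed between the lines (all genes judged: 15.7%) and the baseline counts were 44 and 2. Pairing by replicate number was not shown for the BT-549 arrays, which limits the block counts for that line and for the difference between the lines. The CCN1 baseline call was lost without MDA-MB-468 siControl replicate 3 (adjusted p = 0.0604). Genes close to the detection limit, such as FBN1, LUM, MYL9, MMP1 and MMP14, have changes that the signal over background limits.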
